A study of Danio rerio with 6 samples.

Results

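The genes described here are the uncharacterised zebrafish genes whose level differed at least 2-fold between mondoa-mo and mondoa-mis embryos. A gene counted as uncharacterised when the study's list of differentially expressed genes named it by a symbol that starts with si: or zgc:. The members were chosen on the morphant counts themselves. A member had a mean of at least 2 CPM in the group where it was higher, and its ratio of the mondoa-mo mean to the mondoa-mis mean, each plus 0.1 CPM, was at least 2 or at most 0.5. CPM is the count of a gene scaled to a library total that is common to all libraries. Only part of the rows of the study's lists was read here. Of 32054 genes in the count table, 263 had such a symbol in those rows, 165 of them si: and 98 zgc:. In all, 41 of these 263 genes passed both conditions, 16 of them higher and 25 lower in mondoa-mo. A further 15 genes with an si: or zgc: symbol in a current name table also passed, 7 higher and 8 lower. They are taken up at the end and are not counted as members. All levels, ratios and calls given for the members below are the measure that chose them and are a description.

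MondoA is a glucose-responsive transcription factor of the basic helix-loop-helix leucine zipper family. It pairs with Mlx and binds carbohydrate response elements, which are pairs of E-boxes, near genes of sugar and lipid metabolism. In zebrafish its mRNA is laid down by the mother, and the study examined its part in epiboly, the spreading of the blastoderm over the yolk. Symbols with si: were given to gene models found on sequenced genomic clones, and the text before the last point is the name of the clone. Symbols with zgc: were given to full-length cDNAs of the Zebrafish Gene Collection. Such a symbol says where a sequence came from and nothing about what its product does. Many of these genes have since received a name that refers to a protein family or a human counterpart.

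The study injected embryos with mondoa-mo, a morpholino directed to the start of mondoa translation, or with mondoa-mis, a control oligonucleotide that carries 5 mismatches to that site. No other allele or treatment was part of either group, and 3 libraries of polyadenylated RNA were made per group at 4 hpf. RNA came from pools of whole embryos. The groups were age-matched at the time when mondoa-mis embryos had reached sphere stage. A morpholino injected into the yolk at the zygote stage, the study's default, reaches the whole embryo. It does not remove the gene.

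The total count lay between 21839631 and 32100726 in the mondoa-mo libraries and between 20685326 and 24254373 in the mondoa-mis libraries. The mRNA of the targeted gene itself, mlxip, stood at 290, 326 and 345 CPM in mondoa-mo, against 280, 277 and 271 CPM in mondoa-mis. An oligonucleotide that blocks translation need not lower its mRNA, so that this level does not check the labels. The mondoa-mo libraries differed more among themselves, with a biological coefficient of variation of 0.110 in mondoa-mo and 0.0189 in mondoa-mis. Blastula genes were present, with a summed level of nanog, pou5f3 and sox19b of 2457 to 2609 CPM in mondoa-mo and 2481 to 2508 CPM in mondoa-mis, whereas myod1 and neurod1, which mark later muscle and neurons, had no count in any library. The 4 enveloping layer markers krt4, krt5, cldne and grhl3 summed to 65.4 to 94.8 CPM in mondoa-mo and to 145 to 153 CPM in mondoa-mis. Within them grhl3 was lower, with means of 31.3 CPM in mondoa-mo and 118 CPM in mondoa-mis, and cldne was higher, with 38.7 CPM in mondoa-mo and 17.8 CPM in mondoa-mis. The yolk syncytial layer markers mxtx1 and mxtx2 summed to 15.8 to 26.7 CPM in mondoa-mo and 12.6 to 13.7 CPM in mondoa-mis. Here mxtx1 averaged 13.3 CPM in mondoa-mo and 6.32 CPM in mondoa-mis. The level of mxtx2 differed less, with means of 7.35 CPM in mondoa-mo and 6.67 CPM in mondoa-mis. The germ plasm markers ddx4, nanos3 and dnd1 summed to 303 to 350 CPM in mondoa-mo and 255 to 264 CPM in mondoa-mis. Of these nanos3 differed least, with means of 58.0 CPM in mondoa-mo and 51.3 CPM in mondoa-mis. The mesendoderm markers tbxta, gsc and sox32 summed to 14.7 to 28.7 CPM in mondoa-mo and 13.1 to 14.4 CPM in mondoa-mis. Their means in mondoa-mo were 11.8, 7.02 and 1.34 CPM, against 7.52, 5.08 and 1.32 CPM in mondoa-mis. Whether these cell types contribute to the levels of the members was not tested, and in whole embryos fewer cells of a type and less RNA per cell cannot be told apart.

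Every one of the 263 uncharacterised genes named in the rows read here could be accounted for. Of them 224 reached 2 CPM in the higher group and 39 did not. Of the 224, 183 stayed under the ratio of 2, of which 72 lay above and 111 below equality. The ratio of 2 was passed by 2.61% of all 12620 genes over 2 CPM, 0.943% on the higher and 1.66% on the lower side. All 41 members were called different by edgeR's quasi-likelihood test across 15511 genes (Benjamini-Hochberg adjusted p under 0.05), as were 32.3% of all genes tested, 16.9% on the higher and 15.4% on the lower side. The 3 mondoa-mo values lay entirely outside the 3 mondoa-mis values for 41 of 41 members and for 52.4% of all genes over 2 CPM. Nothing is read from these counts, because the rule used the same contrast.

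The symbols came with a choice of their own. The study's list for the morphants runs in order of the p-value of that comparison, and 182 of the 263 genes, including 40 of the 41 members, had their symbol from its first rows. The 88 uncharacterised genes of the other lists, which run in order of identifier, were not chosen for their change in the morphants. Of these, 7 were also in the rows of the morphant list. The study describes its other lists as comparisons of mondoa mutant embryos, and it reports that mutant and morphant changes overlapped. Of these 88 genes 50 reached 2 CPM. One of the 50 was 2-fold lower (2%) and 0 were 2-fold higher, and this gene, zgc:63831, is the only member that was not named through the list ordered by p-value. It left the members with TMM scaling (log2 ratio -0.97) or DESeq2 size factors (-0.98), with a pseudocount of 1 CPM (-0.69), without mondoa-mo replicate 1 (-0.84) and without mondoa-mis replicate 2 (-0.98). Of the 66 genes of the 88 that edgeR tested, 22 were called (33.3%), 9 higher and 13 lower in mondoa-mo, against 32.3% of all genes tested. The median log2 ratio of the 50 genes over 2 CPM was -0.05, and that of all genes over 2 CPM was -0.03. A second set that was not chosen on the contrast is made of the 6249 genes with an si: or zgc: symbol in a current name table. Of the 1115 of them over 2 CPM, 1.61% were 2-fold higher and 2.15% 2-fold lower, against 0.878% and 1.62% of the 11505 genes with another symbol or none. Of the 1774 that were tested, 26.2% were called, beside 33.1% of the other genes tested. The median level differed as well, at 10.7 CPM for the 1115 genes over 2 CPM and 32.1 CPM for the 11505 other genes. The difference between the shares was not tested.

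**Figure D1:**
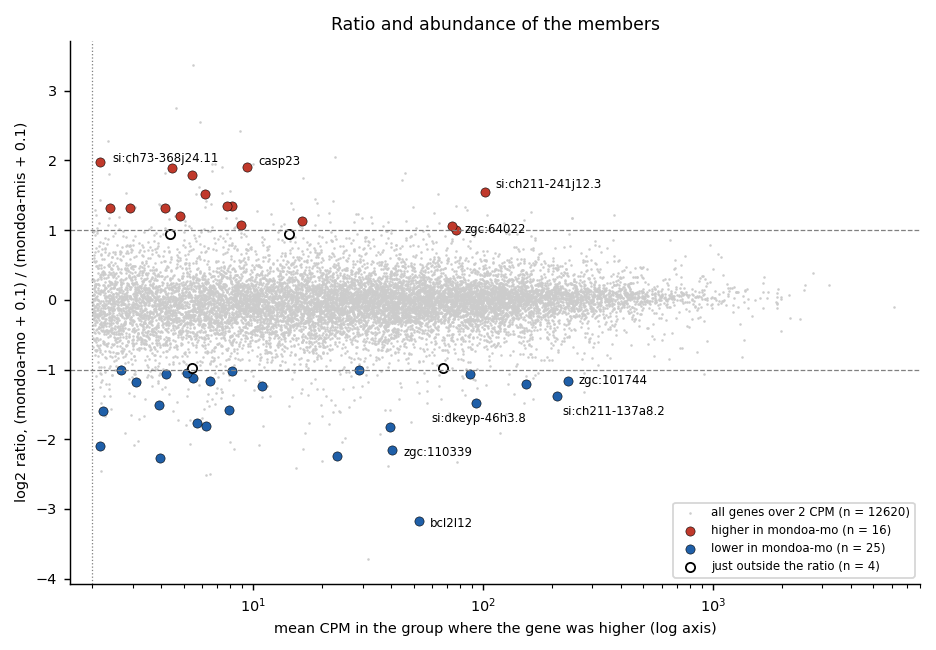
Each point is a gene, placed by its mean CPM in the group where it was higher (x axis, log scale) and by its log2 ratio of mondoa-mo over mondoa-mis (y axis), with all 12620 genes over 2 CPM in grey, members in red and blue, and the 4 genes just outside the ratio as open circles. Dashed lines mark the ratio and a dotted line the minimum of 2 CPM. The members lie outside the dashed lines by construction, 26 of the 41 lie under 10 CPM, and bcl2l12 is the lowest of them at -3.18.

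The member farthest from equality was bcl2l12, or ENSDARG00000090625, which the study's list gives under an si: symbol. It is named for the Bcl-2-like proteins, a family known for its regulators of programmed cell death. It stood at 5.86, 6.32 and 4.98 CPM in mondoa-mo, against 52.6, 52.9 and 52.4 CPM in mondoa-mis. All 3 mondoa-mo libraries were low and the 3 mondoa-mis libraries nearly equal, and the log2 ratio was -3.18, 9.06-fold lower in mondoa-mo. The other members of the lower side lay between -2.27 and -1.01. For comparison, nsdhl, an enzyme of cholesterol synthesis, was at 2.46, 2.61 and 1.89 CPM in mondoa-mo, against 29.8, 31.5 and 33.9 CPM in mondoa-mis.

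Of the 25 lower members, 9 have a descriptive name in the current tables. After bcl2l12 the next by ratio was zgc:123068, or ifi27.1, of a family of small proteins induced by interferon in vertebrates. It was scarce, with 0.312, 0.275 and 0.700 CPM in mondoa-mo, against 2.06, 2.55 and 1.89 CPM in mondoa-mis, and its log2 ratio was -2.10. Its family member ifi27.4, 3 entries away in the RefSeq order, averaged 10.4 ± 0.588 CPM in mondoa-mo and 12.8 ± 0.747 CPM in mondoa-mis (SD, n = 3 libraries each) and was not called (edgeR adjusted p = 0.0527). The gene zgc:86811 carries the name AK6, an adenylate kinase that moves phosphate between adenine nucleotides in the nucleus. It had 2.06, 1.51 and 4.16 CPM in mondoa-mo, against 7.83, 8.21 and 7.69 CPM in mondoa-mis. Replicate 3 of mondoa-mo stood apart from the other two and still lay under all mondoa-mis libraries, and the log2 ratio was -1.58.

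A pair of the lower members carries names from the centrosome and the cilium. The gene si:dkey-274m17.3, listed as CEP15, a centrosomal protein, was at 1.18, 1.51 and 1.23 CPM in mondoa-mo, against 3.01, 2.85 and 3.43 CPM in mondoa-mis (log2 ratio -1.18). The gene zgc:153146, or cfap96, which belongs to the cilia and flagella associated proteins, was at 1.90, 2.52 and 2.96 CPM in mondoa-mo, against 5.32, 5.06 and 5.22 CPM in mondoa-mis (log2 ratio -1.05). Both were low-count genes in either group. The gene zgc:162945, or harbi2, of a family derived from the transposase of Harbinger elements, had 2.77, 3.11 and 2.68 CPM in mondoa-mo, against 7.05, 7.0 and 5.56 CPM in mondoa-mis, with a log2 ratio of -1.17.

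The 3 remaining named genes lay close to the ratio of 2. The gene si:dkey-4p15.3, or hspa8b, a relative of the constitutive chaperone Hsc70, was at 2.40, 3.66 and 5.72 CPM in mondoa-mo, against 8.25, 8.52 and 7.54 CPM in mondoa-mis. The mondoa-mo values covered more than a 2-fold span while the mondoa-mis values were close together. The gene zgc:63831, or napsa, an aspartic peptidase of the pepsin type, was at 0.935, 1.37 and 1.52 CPM in mondoa-mo, against 2.56, 2.81 and 2.66 CPM in mondoa-mis. The gene si:dkey-42i9.8, or shisa10.4, of a family of transmembrane adaptor proteins, was at 11.7, 15.2 and 16.1 CPM in mondoa-mo, against 28.5, 29.4 and 29.0 CPM in mondoa-mis. Its log2 ratio of -1.01 was the closest to the threshold on the lower side. The related shisa10.1, which lies 3 entries away, averaged 97.4 ± 1.66 CPM in mondoa-mo and 93.1 ± 1.13 CPM in mondoa-mis (SD, n = 3 each) and was not called (edgeR adjusted p = 0.112).

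The other 16 lower members have only their clone or cDNA symbol. The lowest ratio among them belonged to si:dkey-122c11.8, with 0.779, 0.824 and 0.617 CPM in mondoa-mo, against 4.12, 2.98 and 4.74 CPM in mondoa-mis (log2 ratio -2.27). Next came si:ch211-156b7.4, the only member whose RefSeq entry is not protein coding. It was at 4.42, 4.81 and 5.19 CPM in mondoa-mo, against 21.8, 23.2 and 24.6 CPM in mondoa-mis, so that every mondoa-mis library held more than 4 times the level of any mondoa-mo library (log2 ratio -2.25). The gene zgc:110339 was at 9.25, 8.52 and 9.18 CPM in mondoa-mo, against 38.8, 39.0 and 43.6 CPM in mondoa-mis (log2 ratio -2.16). The libraries of each group were close to each other here. The gene si:ch73-160p18.4 was at 10.7, 12.8 and 9.80 CPM in mondoa-mo, against 39.0, 39.3 and 40.2 CPM in mondoa-mis (log2 ratio -1.82).

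A further 4 genes of this kind had small counts. In si:ch211-283l16.1 the levels were 1.34, 1.51 and 2.31 CPM in mondoa-mo, against 5.44, 7.09 and 6.24 CPM in mondoa-mis. In zgc:171901 they were 1.43, 2.38 and 1.03 CPM in mondoa-mo, against 5.40, 6.10 and 5.70 CPM in mondoa-mis. In si:ch211-239d6.2 they were 0.592, 0.595 and 0.823 CPM in mondoa-mo, against 2.06, 2.42 and 2.22 CPM in mondoa-mis. Their log2 ratios were -1.81, -1.77 and -1.6. The last of these, si:cabz01054394.6, was at 1.65, 1.1 and 1.15 CPM in mondoa-mo, against 3.92, 4.02 and 3.77 CPM in mondoa-mis (log2 ratio -1.51). The groups did not overlap in these 4, as in all 41 members and in 52.4% of all genes over 2 CPM. The counts behind the mondoa-mo values were small.

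**Figure D2:**
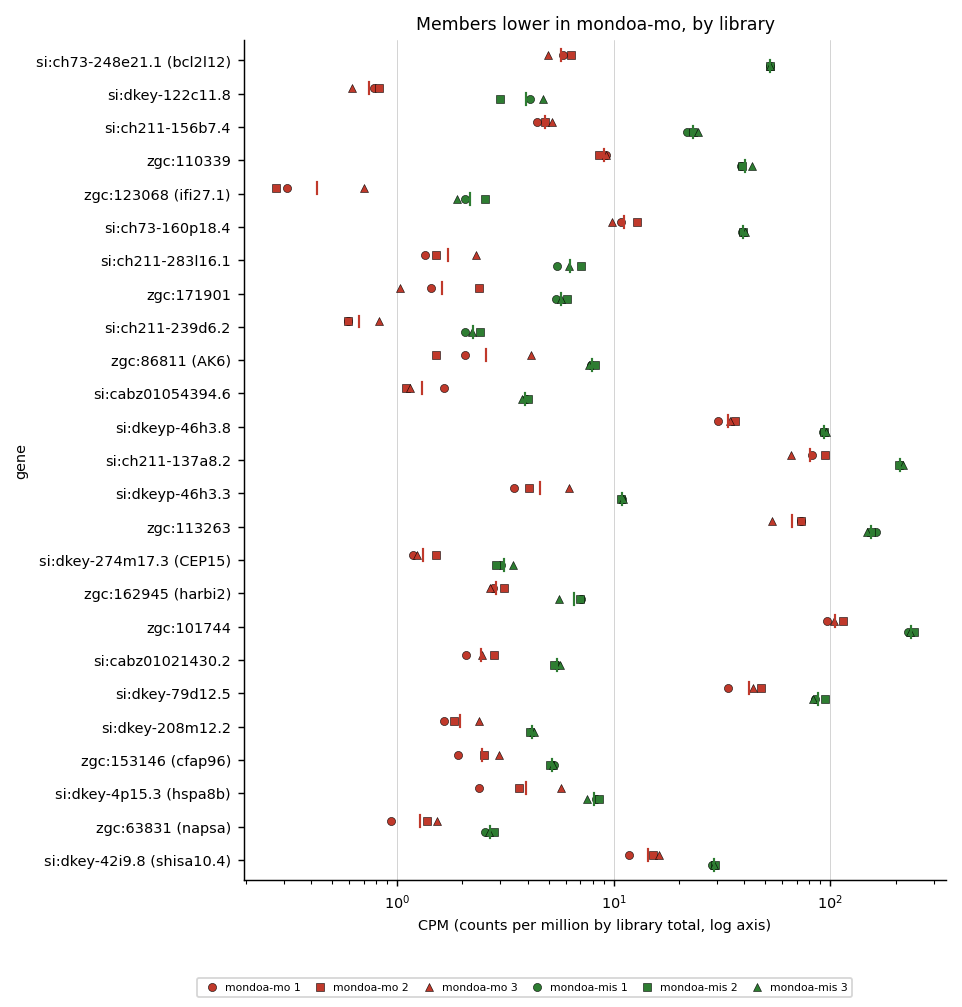
Levels of the 25 lower members in CPM (x axis, log scale), ordered by ratio from the top, with the 3 mondoa-mo libraries in red above the 3 mondoa-mis libraries in green on each line, vertical ticks at the group means and a marker shape for each replicate number. No member has overlapping groups, a trait shared by 52.4% of all genes over 2 CPM. The red points are more spread than the green ones in 22 of the 25 rows. The spread was larger in mondoa-mo for 92.4% of all genes lower by the ratio.

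On the lower side the largest CPM belonged to zgc:101744, with 96.6, 115 and 104 CPM in mondoa-mo, against 228, 244 and 232 CPM in mondoa-mis, and a log2 ratio of -1.16. Divided by its length of 1153 bases, its level was 91.2 CPM per kb in mondoa-mo and 204 CPM per kb in mondoa-mis, the largest per length of any member. The gene si:ch211-137a8.2 was at 81.9, 94.0 and 65.7 CPM in mondoa-mo, against 210, 207 and 216 CPM in mondoa-mis (log2 ratio -1.39), or 23.2 CPM per kb in mondoa-mo and 60.7 CPM per kb in mondoa-mis. The gene zgc:113263 was at 73.1, 73.2 and 54.0 CPM in mondoa-mo, against 162, 154 and 147 CPM in mondoa-mis (log2 ratio -1.21), or 8.22 CPM per kb in mondoa-mo and 19 CPM per kb in mondoa-mis. In both genes replicate 3 of mondoa-mo was the lowest library.

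The other lower members over 50 CPM in mondoa-mis, besides bcl2l12, were si:dkeyp-46h3.8, with 30.4, 36.4 and 34.2 CPM in mondoa-mo, against 92.3, 93.3 and 95.6 CPM in mondoa-mis, and si:dkey-79d12.5, with 33.6, 48.0 and 44.1 CPM in mondoa-mo, against 85.1, 94.6 and 83.4 CPM in mondoa-mis. Together the 25 lower members summed to 382, 443 and 383 CPM in mondoa-mo and to 1035, 1057 and 1042 CPM in mondoa-mis. The lower members not given above, si:dkeyp-46h3.3 aside, were si:cabz01021430.2, at 2.45 ± 0.353 CPM in mondoa-mo and 5.47 ± 0.171 CPM in mondoa-mis, and si:dkey-208m12.2, at 1.96 ± 0.384 CPM in mondoa-mo and 4.19 ± 0.10 CPM in mondoa-mis (SD, n = 3 each).

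On the higher side the log2 ratios lay between 1.01 and 1.98, and 5 of the 16 members have a descriptive name. The farthest of these was zgc:171731, or casp23, of the caspases, a family of cysteine proteases known from programmed cell death and inflammation. It was at 12.7, 8.84 and 6.75 CPM in mondoa-mo, against 2.89, 2.21 and 2.22 CPM in mondoa-mis. The mondoa-mo libraries were all high but covered almost a 2-fold span, and the log2 ratio was 1.91. The gene si:ch211-107n13.1, or fam110d, whose family is named for sequence similarity, was at 2.55, 2.29 and 3.91 CPM in mondoa-mo, against 0.907, 1.21 and 1.21 CPM in mondoa-mis (log2 ratio 1.32).

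The gene si:ch211-284b7.3, or czib, a zinc-binding protein, was at 4.39, 4.62 and 5.48 CPM in mondoa-mo, against 2.14, 1.95 and 2.03 CPM in mondoa-mis (log2 ratio 1.2). The gene zgc:162939, or aopep, an aminopeptidase that removes residues from the amino end of peptides, was at 18.8, 17.4 and 13.0 CPM in mondoa-mo, against 7.38, 6.49 and 8.41 CPM in mondoa-mis (log2 ratio 1.13). The gene si:ch211-223m11.2, or zpax2, encodes a zona pellucida protein, a type of protein of the egg envelope. It was at 74.1, 75.8 and 71.0 CPM in mondoa-mo, against 36.0, 35.3 and 34.9 CPM in mondoa-mis. The libraries of each group were close together, and the log2 ratio was 1.05.

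The member with the largest ratio, si:ch73-368j24.11, is also one of those close to the minimum of 2 CPM. It had 2.06, 1.24 and 3.21 CPM in mondoa-mo, against 0.371, 0.476 and 0.580 CPM in mondoa-mis, a log2 ratio of 1.98. With a pseudocount of 1 CPM the log2 ratio was 1.1 for this gene and 1.6 for casp23, and without mondoa-mo replicate 3 it was 1.6 for this gene and the mean lay under 2 CPM. These levels rest on 66, 27 and 78 counts in mondoa-mo and on 9, 11 and 12 counts in mondoa-mis. The gene zgc:110425 was at 3.99, 3.85 and 5.48 CPM in mondoa-mo, against 1.28, 1.12 and 0.967 CPM in mondoa-mis (log2 ratio 1.89). The gene zgc:162193, for which RefSeq gives the synonym tcaf, was at 7.76, 5.08 and 3.50 CPM in mondoa-mo, against 1.61, 1.6 and 1.31 CPM in mondoa-mis (log2 ratio 1.79). The gene zgc:92360 was at 9.84, 4.99 and 3.83 CPM in mondoa-mo, against 1.98, 1.95 and 2.42 CPM in mondoa-mis (log2 ratio 1.51). In zgc:162193, zgc:92360 and casp23 replicate 1 of mondoa-mo was the highest library and replicate 3 the lowest.

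The largest CPM on this side belonged to si:ch211-241j12.3, with 102, 111 and 93.4 CPM in mondoa-mo, against 36.3, 33.6 and 35.0 CPM in mondoa-mis and a log2 ratio of 1.55. Per length this was 17 CPM per kb in mondoa-mo and 5.81 CPM per kb in mondoa-mis. Only zpax2 and zgc:64022, of the other 15 higher members, passed 50 CPM. The gene zgc:64022 was at 74.1, 75.5 and 79.2 CPM in mondoa-mo, against 37.4, 38.2 and 38.0 CPM in mondoa-mis, and with a log2 ratio of 1.01 was the closest to the threshold. The gene si:ch211-106n13.3 was at 8.57, 8.2 and 6.30 CPM in mondoa-mo, against 3.13, 3.07 and 2.66 CPM in mondoa-mis (log2 ratio 1.35). The gene si:ch73-359m17.2 was at 8.85, 6.91 and 8.56 CPM in mondoa-mo, against 3.13, 2.85 and 3.43 CPM in mondoa-mis (log2 ratio 1.34). The gene si:ch73-43g23.1 averaged 2.39 ± 0.427 CPM in mondoa-mo and 0.900 ± 0.119 CPM in mondoa-mis (SD, n = 3 each). The 16 higher members summed to 346, 339 and 321 CPM in mondoa-mo and to 141, 137 and 140 CPM in mondoa-mis.

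**Figure D3:**
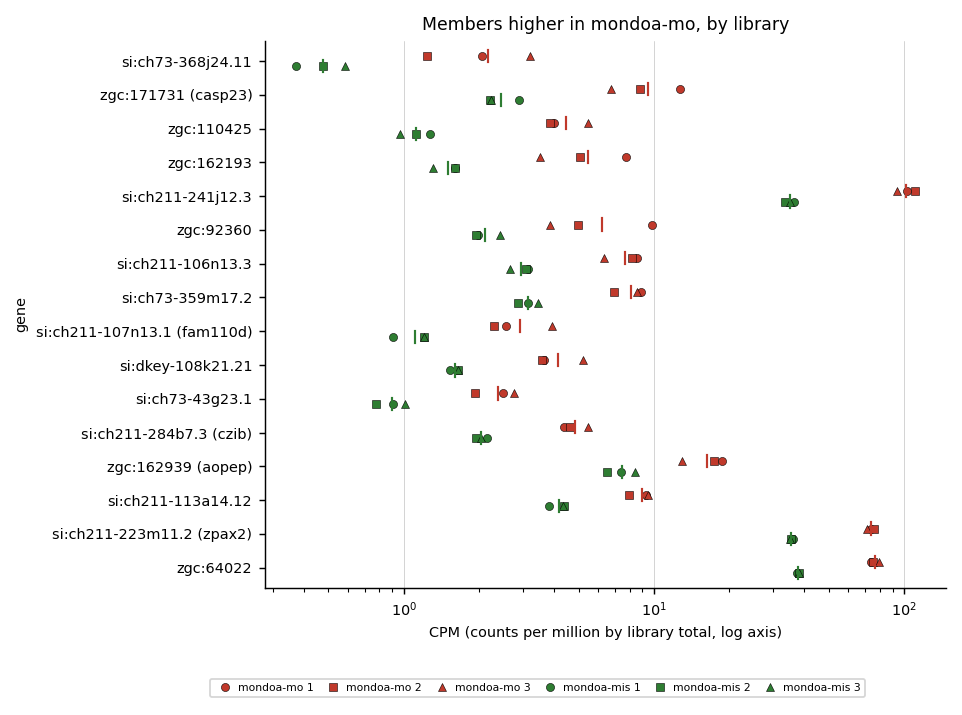
Levels of the 16 higher members in CPM (x axis, log scale), ordered by ratio from the top, with mondoa-mo libraries in red above mondoa-mis libraries in green, vertical ticks at the group means and a marker shape for each replicate number. The red points are more spread than the green ones in all 16 rows, most of all in si:ch73-368j24.11, zgc:92360, zgc:162193 and casp23. The spread was larger in mondoa-mo for 83.2% of all genes higher by the ratio.

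Uncharacterised genes also stood on both sides of the thresholds. Just inside were si:dkey-42i9.8 and zgc:63831 on the lower side, both at -1.01, and zgc:64022 and zpax2 on the higher side at 1.01 and 1.05. Just outside on the lower side was zgc:56493, which carries the name of thioredoxin, a small protein that reduces disulfides. It was at 35.5, 31.8 and 35.0 CPM in mondoa-mo, against 65.4, 67.5 and 68.4 CPM in mondoa-mis (log2 ratio -0.98). It was followed by si:dkey-175m17.7, with means of 2.74 CPM in mondoa-mo and 5.46 CPM in mondoa-mis (log2 ratio -0.97). Just outside on the higher side were zgc:153733, now pheta2, with means of 14.4 CPM in mondoa-mo and 7.42 CPM in mondoa-mis, and si:dkey-77f5.13, with means of 4.36 CPM in mondoa-mo and 2.21 CPM in mondoa-mis, both at a log2 ratio of 0.95. Of the 39 genes under 2 CPM, si:dkey-207l24.2, zgc:100868, si:dkey-23k10.5 and si:dkey-153k10.9 would have passed the ratio, all on the lower side. The first of them had 2, 2 and 5 counts in mondoa-mo and 26, 37 and 34 counts in mondoa-mis.

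The members had low levels, as did the other genes that passed the ratio. In the group where the gene was higher, the median level was 6.95 CPM for the 16 higher members and 7.91 CPM for the 25 lower members. Over all genes that passed the ratio, whatever their symbol, it was 8.48 CPM on the higher and 10.4 CPM on the lower side. It was 36.1 CPM for the 183 uncharacterised genes that stayed under the ratio and 29.4 CPM for all genes over 2 CPM. Many of the 183 had their symbol from the list ordered by p-value. For the 1115 genes over 2 CPM with an si: or zgc: symbol in the current name table, not chosen on the contrast, the median was 10.7 CPM. Under 10 CPM lay 12 of the 16 higher members, 14 of the 25 lower members, 52.9% and 49.5% of all genes higher or lower by the ratio, 14.8% of the other uncharacterised genes and 27.6% of all genes. Of the members, 11 had fewer than 50 counts in every library of the group where they were lower. Per length the medians were 4.22 CPM per kb for the higher and 6.07 CPM per kb for the lower members, against 13.7 CPM per kb for the other uncharacterised genes and 11.5 CPM per kb for all genes. All genes that passed the ratio had medians of 4.67 CPM per kb on the higher and 4.26 CPM per kb on the lower side. The grey cloud in the plot of ratio against abundance is wider at low levels, and the share of scarce genes among the members was therefore not read as a trait of uncharacterised genes.

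Gene length was not used by the rule. The length deposited with the counts had a median of 2454 bases for the higher members and 2052 bases for the lower members, against 2851 bases for the other uncharacterised genes and 2676.5 bases for all genes over 2 CPM. Many of the other uncharacterised genes had their symbol from the list ordered by p-value. The 1115 genes over 2 CPM with an si: or zgc: symbol in the current name table had a median of 2132 bases. That set was not chosen on the contrast, so the members were not read as shorter than uncharacterised genes in general. All genes that passed the ratio, whatever their symbol, had medians of 2585 bases on the higher side and 2459.5 bases on the lower side. The members ran from 716 bases in si:dkey-108k21.21 to 12693 bases in si:cabz01021430.2. Under 1000 bases lay 6 members, 3 of each direction, and over 5000 bases another 6, again 3 of each. Of all 12620 genes over 2 CPM, 840 were under 1000 bases and 2470 over 5000 bases. The difference from all genes was not tested. The short members were si:dkey-108k21.21, si:ch73-368j24.11 and si:ch211-113a14.12 on the higher side and si:ch211-239d6.2, si:ch211-156b7.4 and shisa10.4 on the lower side.

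**Figure D4:**
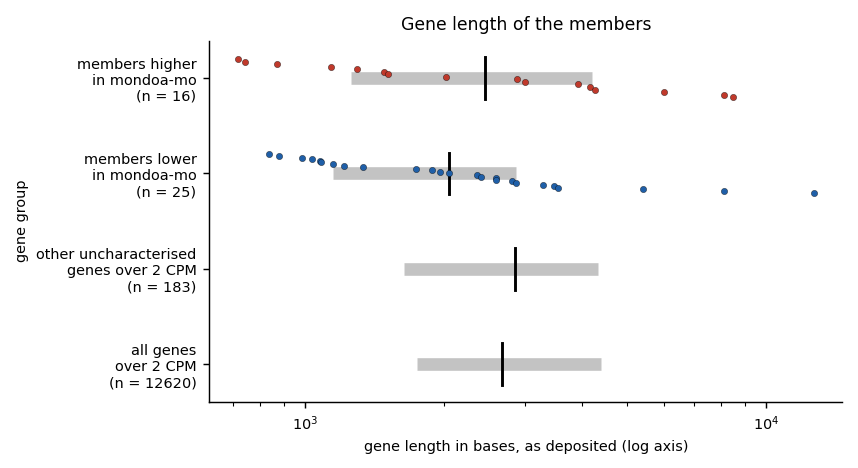
Gene length in bases as deposited (x axis, log scale) for the 16 higher members, the 25 lower members, the 183 other uncharacterised genes and all 12620 genes over 2 CPM, with a point for each member, a grey bar from the lower to the upper quartile and a black line at the median. The medians of the members, 2454 and 2052 bases, lie to the left of those of the other uncharacterised genes and of all genes, and the ranges overlap widely. Not drawn are the 1115 genes over 2 CPM with an si: or zgc: symbol in the current name table, whose median was 2132 bases.

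The libraries of a group were compared through the SD of log2(CPM + 0.1). For the 41 members its median was 0.257 in mondoa-mo and 0.0866 in mondoa-mis. Over all genes higher by the ratio it was 0.277 in mondoa-mo and 0.104 in mondoa-mis. For all genes lower by the ratio it was 0.267 in mondoa-mo and 0.0801 in mondoa-mis. The SD was larger in mondoa-mo for 38 of the 41 members and for 80.8% of all genes over 2 CPM. The same held for 83.2% of all genes higher and 92.4% of all genes lower by the ratio. Among the higher members the top mondoa-mo library was replicate 1 for 6 genes, replicate 2 for 2 genes and replicate 3 for 8 genes. Over all 119 genes higher by the ratio it was replicate 1 for 59, replicate 2 for 16 and replicate 3 for 44. Among the lower members the bottom mondoa-mo library was replicate 1 for 14 genes, replicate 2 for 4 and replicate 3 for 7. Over all 210 genes lower by the ratio it was replicate 1 for 74, replicate 2 for 61 and replicate 3 for 75. The labels do not say whether the 3 libraries of a group came from separate clutches or injections, and the SD covers only the spread between these libraries. Sequencing lane could not be compared between groups, as no library is assigned to a lane.

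Members whose symbols share a clone name come from 1 stretch of the genome. For 16 clones the table held a member and at least 1 other gene named after the same clone, 78 such genes in all that are not members. Of these 33 were tested, and 10 were called higher and 3 lower in mondoa-mo, beside 16.9% and 15.4% of all genes tested. The difference from all genes was not tested, and some of the 78 genes had their symbol from the list ordered by p-value. Only clone dkeyp-46h3 gave 2 members, si:dkeyp-46h3.8 and si:dkeyp-46h3.3. The second was at 3.46, 4.08 and 6.22 CPM in mondoa-mo, against 10.9, 10.8 and 11.1 CPM in mondoa-mis (log2 ratio -1.23). Another gene of the clone, si:dkeyp-46h3.2, was at 34.1, 40.5 and 42.2 CPM in mondoa-mo, against 69.8, 68.0 and 71.3 CPM in mondoa-mis, and fell with a log2 fold change of -0.80 (edgeR adjusted p = 4.36e-05). Likewise si:dkeyp-46h3.6 was at 4.49, 5.59 and 4.94 CPM in mondoa-mo, against 8.58, 7.74 and 9.38 CPM in mondoa-mis, and fell with a log2 fold change of -0.74 (edgeR adjusted p = 0.00153). Both of these genes had their symbol from the list ordered by p-value. The clone did not move as a whole, since si:dkeyp-46h3.5 averaged 4.28 ± 0.451 CPM in mondoa-mo and 4.34 ± 0.394 CPM in mondoa-mis (SD, n = 3 each; edgeR adjusted p = 0.955), and si:dkeyp-46h3.4 had no count in any library.

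Other clones held genes of both directions. Beside the lower member si:ch73-160p18.4, the gene si:ch73-160p18.3 was at 58.0, 59.3 and 57.8 CPM in mondoa-mo, against 76.3, 80.1 and 76.0 CPM in mondoa-mis, and fell (edgeR adjusted p = 0.000478). On the same clone si:ch73-160p18.5 was at 27.7, 23.4 and 22.6 CPM in mondoa-mo, against 15.6, 14.9 and 15.7 CPM in mondoa-mis, and rose (edgeR adjusted p = 0.000394). Beside the lower member si:ch211-137a8.2, the gene si:ch211-137a8.4 was at 4.30, 3.34 and 7.57 CPM in mondoa-mo, against 3.01, 2.90 and 3.00 CPM in mondoa-mis, and rose (edgeR adjusted p = 0.0395). Beside shisa10.4, the gene si:dkey-42i9.4 averaged 239 ± 5.41 CPM in mondoa-mo and 247 ± 6.36 CPM in mondoa-mis (SD, n = 3 each) and was not called (edgeR adjusted p = 0.984).

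Another 3 clones with short, scarce genes contained a higher member each. Clone ch211-113a14 held si:ch211-113a14.12, now listed as zgc:110216, at 9.35, 7.97 and 9.47 CPM in mondoa-mo, against 3.79, 4.37 and 4.35 CPM in mondoa-mis. Of its 21 other named genes 12 were tested and 4 were called, all higher. Of all genes tested, 16.9% were called higher and 15.4% lower. An example is si:ch211-113a14.18, at 1.62, 1.47 and 1.81 CPM in mondoa-mo, against 0.495, 0.605 and 0.628 CPM in mondoa-mis (edgeR adjusted p = 0.000783). Clone dkey-108k21 held si:dkey-108k21.21, at 3.64, 3.57 and 5.23 CPM in mondoa-mo, against 1.53, 1.64 and 1.64 CPM in mondoa-mis, and of its 15 other genes 9 were tested and 2 were called, both higher. Clone ch73-368j24 held si:ch73-368j24.11, and of its 11 other genes 4 were tested and 2 were called, both higher. In these 3 clones every call was on the higher side. With so few genes tested, neither the shares nor the direction were read as differing from all genes, and the difference was not tested. In the RefSeq order si:ch211-113a14.12 overlaps hist1h2a4, and zgc:110425 lies next to hist1h2a2, both named as genes of histone H2A, a core protein of the nucleosome. Read pairs that match more than 1 near-identical copy are not unique and were not counted, so that levels in such gene families are uncertain.

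**Figure D5:**
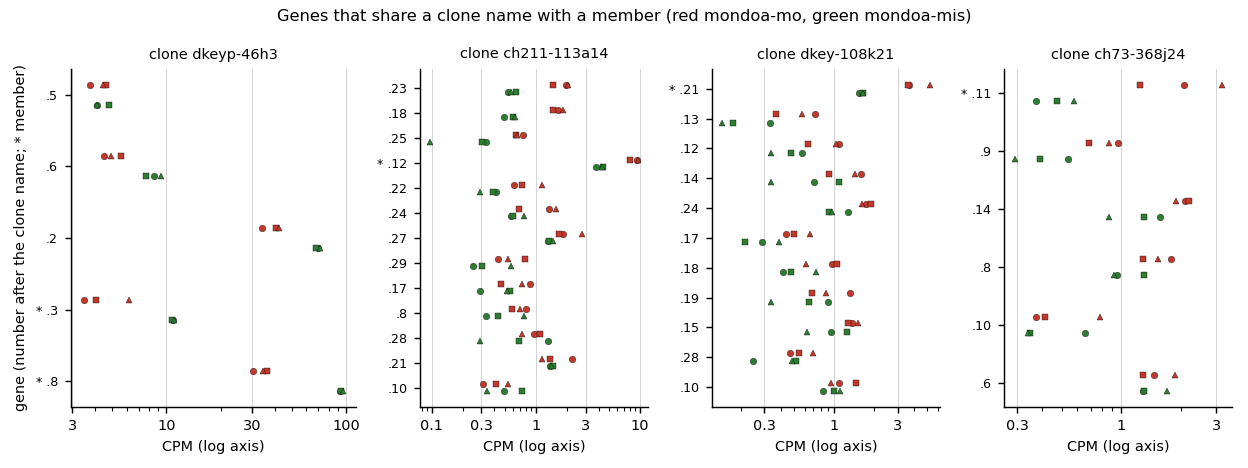
Levels in CPM (x axes, log scale) of genes that share a clone name with a member, for clone dkeyp-46h3 and the 3 clones with short genes (there only genes with a mean of at least 0.5 CPM in the higher group), with mondoa-mo libraries in red above mondoa-mis libraries in green, a marker shape for each replicate number and an asterisk for members. In dkeyp-46h3 the groups overlap for si:dkeyp-46h3.5, in the top row, and for no other gene, and in the other panels most genes lie near or under 1 CPM, with red points often to the right of green ones and the groups overlapping in several rows.

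The genes next to the members were looked up in the RefSeq gene order of assembly GRCz12tu. It served only for names, order and overlap of spans. In it 35 of the 41 members had an entry, 34 of them protein coding. Among the 3 entries on each side of these members, 134 genes were matched to the counts and are not members themselves. Of these 78 were tested and 25 were called (32.1%), 11 higher and 14 lower in mondoa-mo, against 32.3% of all genes tested. In 26 pairs of a member and a called neighbour, 16 pairs had the same direction and 10 the opposite one.

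Of the neighbours that are not members and reached 2 CPM in the higher group, 1 passed the ratio of 2, and it went the other way than its member. This was scp2a, a sterol carrier protein, next to czib. It was at 3.21, 3.30 and 2.76 CPM in mondoa-mo, against 10.3, 10.2 and 12.8 CPM in mondoa-mis, and fell with a log2 fold change of -1.80 (edgeR adjusted p = 1.11e-05). The gene rcn3, which encodes a calcium-binding protein of the secretory pathway, lies 3 entries from bcl2l12. It was at 68.4, 54.9 and 51.1 CPM in mondoa-mo, against 31.2, 30.2 and 30.8 CPM in mondoa-mis, and rose with a log2 fold change of 0.97 (edgeR adjusted p = 0.000103). The gene gadd45bb, of the growth arrest and DNA damage inducible family, lies 3 entries from zgc:101744. It was at 35.5, 35.0 and 43.0 CPM in mondoa-mo, against 19.0, 18.6 and 19.4 CPM in mondoa-mis, and rose with an edgeR log2 fold change of 1.03 (edgeR adjusted p = 2.64e-05). By CPM, the measure of the rule, its log2 ratio was 0.989, so that it stayed under the ratio of 2.

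Some called neighbours had the direction of their member. The gene oclnb, which encodes an occludin of the tight junctions and lies 2 entries from AK6, was at 114, 113 and 105 CPM in mondoa-mo, against 165, 165 and 162 CPM in mondoa-mis, and fell with a log2 fold change of -0.52 (edgeR adjusted p = 4.80e-05). The gene polr2m, 2 entries from harbi2, averaged 6.07 ± 0.812 CPM in mondoa-mo and 9.49 ± 0.430 CPM in mondoa-mis (SD, n = 3 each) and fell (edgeR adjusted p = 0.00332). The gene si:ch211-22i13.2, 3 entries from zpax2, averaged 22 ± 1.42 CPM in mondoa-mo and 12.2 ± 1.01 CPM in mondoa-mis (SD, n = 3 each) and rose (edgeR adjusted p = 6.85e-05).

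The spans of 15 members overlap another RefSeq entry. These spans are those of GRCz12tu, whereas the counts used Ensembl 96 genes on GRCz11. Whether the counted genes themselves overlap was not checked. Whether strand was used in counting is not given in the sources used here, so reads of overlapping genes cannot always be told apart. The member zgc:113263 overlaps si:dkey-14d8.1, which was at 73.0, 76.8 and 62.8 CPM in mondoa-mo, against 95.7, 98.9 and 94.6 CPM in mondoa-mis, and fell less (log2 fold change -0.40, edgeR adjusted p = 0.00195). The member si:ch73-359m17.2 overlaps topaz1, which averaged 67.4 ± 5.47 CPM in mondoa-mo and 63.6 ± 0.671 CPM in mondoa-mis (SD, n = 3 each) and was not called (edgeR adjusted p = 0.158). The lower member CEP15 overlaps fezf2, a forebrain transcription factor, which was at 0.467, 0.824 and 1.03 CPM in mondoa-mo, against 0.289, 0.216 and 0.0483 CPM in mondoa-mis and was called higher (edgeR adjusted p = 0.0121). The levels of hist1h2a4 were 0.846 ± 0.454 CPM in mondoa-mo and 0.945 ± 0.105 CPM in mondoa-mis (SD, n = 3 each), while the overlapping si:ch211-113a14.12 was higher in mondoa-mo.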

How the data were processed

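Polyadenylated RNA was measured in 3 mondoa-mo and 3 mondoa-mis libraries of embryos at 4 hpf. The authors read 50 nucleotides from each end of the fragments and used STAR 2.3.8 with the genome build GRCz11. They deposited raw counts, the number of uniquely mapped pairs for every gene of Ensembl 96, beside a gene length in bases. Strand use was not given in the sources used here. CPM was computed on the column total, and ratios used a pseudocount of 0.1 CPM. Over all genes the groups were compared in R 4.3.3 with edgeR 4.0.16 (filterByExpr, TMM, quasi-likelihood test, no covariate, Benjamini-Hochberg, threshold 0.05), checked on simulated data, with DESeq2 1.42.0 as an alternative. The other alternatives varied scaling, filter, pseudocount, minimum and ratio, used a replicate block, and left out each library. Members and lists were chosen with earlier results of these data known. Symbols came from the rows of the study's gene lists read here, and current names from a table that matched 28986 identifiers and from RefSeq (GRCz12tu). The genes named were the 10 lowest and 10 highest ratios, the 5 most abundant members in each direction, members that share a clone name, and the 2 just inside and just outside each threshold. The other members, the clone mates and the neighbours were named after their values were seen. The planned comparison of proteins and promoters was not run, as no sequence was used here.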

Additional observations from a re-analysis of the deposited data

How the results depend on the processing

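The members depend on the settings of the rule. A pseudocount of 1 CPM gave 26 members (10 higher, 16 lower) and 215 genes 2-fold apart among all genes (76 higher, 139 lower). A minimum of 5 CPM gave 28 members (10 higher, 18 lower). Without a minimum, 842 genes were 2-fold apart (315 higher, 527 lower). A ratio of 3 gave 13 members (4 higher, 9 lower) and 72 genes (22 higher, 50 lower). Scaling by TMM or by DESeq2 size factors gave 38 members, without zgc:63831, si:dkey-4p15.3 and si:dkey-42i9.8. Leaving out 1 library gave 39 to 48 members (15 to 19 higher, 21 to 30 lower) and 299 to 396 genes 2-fold apart (111 to 143 higher, 188 to 260 lower), and 32 of the 41 members stayed whichever library was left out. Those that left were zgc:63831, zgc:153146, si:dkey-4p15.3, si:dkey-79d12.5, si:dkey-208m12.2 and si:dkey-42i9.8 without mondoa-mo replicate 1, si:dkey-4p15.3 without mondoa-mo replicate 2, zgc:64022 and si:ch73-368j24.11 without mondoa-mo replicate 3, zgc:64022 without mondoa-mis replicate 1, and zgc:63831, zgc:123068, si:dkey-4p15.3 and si:dkey-42i9.8 without mondoa-mis replicate 2. Of the 32 members that stayed, 23 also stayed under both scalings and the pseudocount of 1 CPM. With 1 library left out, the count of genes edgeR called ranged from 3119 to 5832 (1632 to 3039 higher, 1487 to 2793 lower), against 5017 with all libraries. It was 3275, 3119 and 3173 without mondoa-mis replicate 1, 2 or 3, and 4716, 5372 and 5832 without mondoa-mo replicate 1, 2 or 3. Among the identifier-ordered genes the count ranged from 14 to 24. The edgeR fit gave each gene a single estimate of spread for both groups, although the mondoa-mo libraries differed more among themselves. How far the adjusted p-values depend on this was not tested. DESeq2's Wald test called 4396 genes. Scaling by library size alone called 5007 genes, 2137 higher and 2870 lower, against 2621 higher and 2396 lower. Same-numbered libraries deviated together only weakly (correlations of 0.038, 0.026 and 0.047), and the labels do not say whether they were paired. The replicate block gave 5281 called genes (2692 higher, 2589 lower) and 23 of the identifier-ordered genes, and every mondoa-mo library correlated best with its own number. Of 324 ratios of named genes under the alternatives, 13 moved by more than the spread between libraries. All 13 were values with the pseudocount of 1 CPM. That 0 reversed follows largely from the choice of these genes at or near a 2-fold ratio, and nothing is read from it. Depth limits the scarce members, whose ratios rest on few counts.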

Other observations

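The current name table holds further genes with an si: or zgc: symbol that passed the same minimum and ratio and were not named in the rows read here. There were 15 of them, 7 higher and 8 lower in mondoa-mo, and in all 15 the groups did not overlap, as in 52.4% of all genes over 2 CPM. They were found by the measure that chose the members and are a description. The largest CPM belonged to si:ch211-143l19.3, at 239, 225 and 272 CPM in mondoa-mo, against 111, 111 and 105 CPM in mondoa-mis (log2 ratio 1.17). Another, si:dkey-57n24.9, was at 11.2, 12.2 and 14.3 CPM in mondoa-mo, against 34.2, 41.6 and 37.2 CPM in mondoa-mis (log2 ratio -1.58).

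Among these 15 genes si:ch211-108c17.2 differed most between the mondoa-mo libraries. It was at 0.218, 0.824 and 7.41 CPM in mondoa-mo, against 15.7, 13.9 and 16.6 CPM in mondoa-mis, with a log2 ratio of -2.41. Replicate 3 of mondoa-mo was far above the other two and closest to mondoa-mis. The gene si:dkeyp-33c10.5, at 10.5, 15.2 and 23.4 CPM in mondoa-mo, against 7.87, 7.74 and 8.27 CPM in mondoa-mis (log2 ratio 1.03), also had its extreme value in replicate 3 of mondoa-mo. The largest ratio on the higher side was that of si:dkey-182g1.8, at 8.78, 6.59 and 5.10 CPM in mondoa-mo, against 1.69, 1.43 and 1.98 CPM in mondoa-mis (log2 ratio 1.94).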
